A study of Mus musculus with 23 samples.

Results

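The data described here compare tibialis anterior, the fast muscle at the front of the shin, after injections of 6-hydroxydopamine (6-OHDA) with uninjected muscle, in wild-type mice at lights off. Of the 23 libraries of the series, 7 belong to this comparison, 3 from uninjected and 4 from injected muscle. Of the 14500 genes in the deposited table, 11684 had an FPKM (fragment counts scaled to exon length and to library size) of at least 1 in at least 2 of the 7 libraries, and these were tested. The remaining genes were too low to enter the test. Just inside the limit lay Agmo, whose FPKM in its next-to-highest library was 1.0001, and just outside lay Inip at 0.9999.

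All 7 muscles came from female wild-type C57BL/6 mice fed without restriction, and none of these mice carried a transgene or Cre in the labels. Zeitgeber time (ZT) 12 is the hour of lights off. In the 4 treated muscles 6-OHDA, dissolved in 0.3% ascorbic acid, was injected at 50 mg/kg on alternate days over 2 weeks under isoflurane, followed by 2 weeks of recovery before the muscle was taken. The control muscles, labelled sham, received no injection, so 6-OHDA, its solvent, the needle and the anaesthesia cannot be told apart in this comparison. Sham libraries are numbered 5, 6 and 7 in the labels, from mice of 16, 18 and 12 weeks, and 6-OHDA libraries 5, 6, 7 and 8, from mice of 15, 12, 12 and 13 weeks. Values per library are given in that order throughout. The labels do not say that each library came from a mouse of its own, and p-values measure the spread between these libraries. RNA was taken from whole muscle, so fewer cells of a type and less RNA per cell cannot be told apart.

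6-OHDA enters sympathetic nerve endings through the noradrenaline transporter and destroys them by oxidation, which is why it is used for chemical sympathectomy. Skeletal muscle answers local injury in a known order: phagocytes enter and clear debris, fibro-adipogenic progenitors lay down matrix, and satellite cells divide, turn on myogenin and fuse into new fibres that first use embryonic contractile proteins. Fibre type follows nerve activity, with slow fibres using their own myosin, troponins and calcium pump.

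Reads were recovered from the steps between small FPKM values, since the table holds no counts, and came to 26 to 36.1 M per library. Of these reads 17.9% ± 2.56 (SD, n = 3) came from the mitochondrial genome in sham and 13.2% ± 2.32 (SD, n = 4) in 6-OHDA libraries, a difference short of the threshold (exact two-sided permutation test, p = 0.0571, adjusted over 3 shares 0.0857; the smallest p these 7 libraries allow is 0.0286). Library 6 of the 6-OHDA group stood apart, with the lowest mitochondrial share, 9.9%, and the highest summed levels of collagens and of macrophage markers. Fibre genes stood where a muscle sample should have them: Ckm, muscle creatine kinase, lay between 7776 and 8311 FPKM in sham and between 4720 and 6805 FPKM in 6-OHDA libraries. Markers of sympathetic neurons, T cells, neutrophils and keratinocytes were at trace levels in all 7 libraries.

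At ZT12, 2347 of the 11684 genes (20.1%) passed the test at a Benjamini-Hochberg adjusted p under 0.05, 1451 of them higher in 6-OHDA muscle (12.4%) and 896 lower (7.67%). The test was limma on log2(FPKM + 0.01), with the spread pooled over the 15 wild-type libraries of both times. With all 23 libraries of the series in the fit only 2 genes passed, Apln higher and the predicted gene Gm23823 lower, and 2348 had an unadjusted p under 0.05; the median residual SD was 0.434 in the groups labelled RE-RE that this fit adds and 0.205 in wild-type mice. All 2347 differences kept their sign without any 1 of the 7 libraries, and 651 passed each time. The number passing fell to 939 without sham library 6, to 1103 without sham library 7, to 1293 without sham library 5 and to 1014 without 6-OHDA library 6. Rises were also larger: 566 of the genes that rose did so at least 2-fold, against 46 of those that fell.

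The balance of rises and falls depends on how libraries are scaled. The library totals implied by the deposited FPKM are not the totals of recovered reads, and the gap differs between the groups. Recovered reads were 1.21 to 1.23 times the implied total in sham and 0.911 to 1.08 times in 6-OHDA libraries. As deposited, the median difference of all tested genes was -0.05 and 61.8% of the calls were higher. When each library was scaled to its own total of recovered reads the median moved by 0.26 to 0.21, 2494 genes were called higher and 151 lower, and 94.3% of calls were higher. Of the 896 falls, 150 were still called lower under that scaling and 5 changed sign. Differences below are as deposited, and a fall that ended under own totals is named as such. A gene that entered the test only through 6-OHDA libraries could hardly be called lower: 513 genes did, 294 of which were called higher. Among the lists below this holds for 1 gene each of antigen presentation, embryonic, denervation, phagocyte lysosome, endothelial flow, myogenic, adipocyte and Nrf2 genes and 2 each of interferon-stimulated, unfolded protein and cell-cycle genes, and larger numbers are given beside their list.

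**Figure D1:**
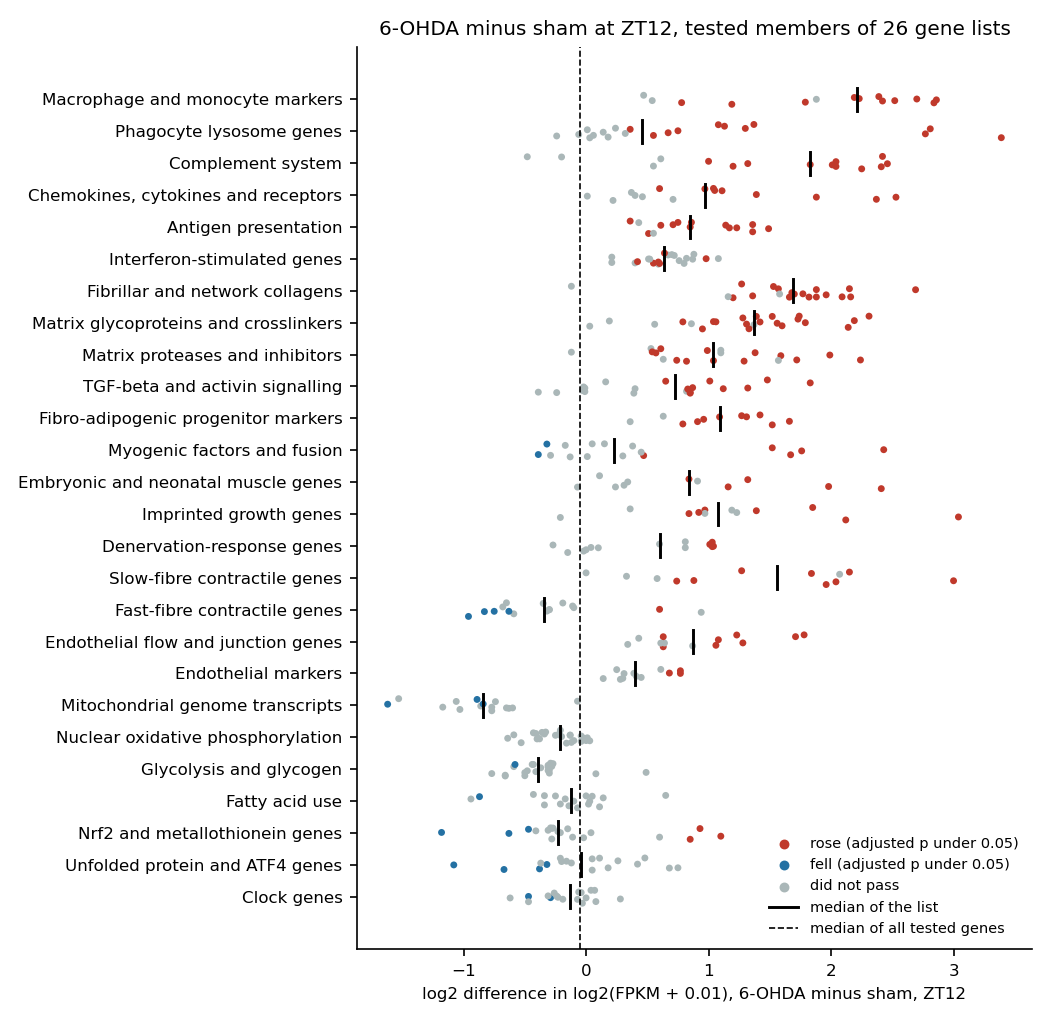
Log2 difference between 6-OHDA and sham muscle at ZT12 (horizontal axis) for each tested member of 26 gene lists (rows); red points rose and blue points fell at an adjusted p under 0.05, grey points did not pass, black bars are list medians and the dashed line is the median of all tested genes, -0.05. Macrophage markers, collagens and slow-fibre genes lie to the right of the line with medians of 2.21, 1.69 and 1.56, and transcripts of the mitochondrial genome to its left with a median of -0.84.

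The largest rise among named genes was in Sfrp2 (chromosome 3, 83766321 to 83774316, GRCm38), a secreted protein that binds Wnt ligands. It stood at 0.248, 0.301 and 0.146 FPKM in sham and at 2.05, 7.16, 4.28 and 5.20 FPKM in 6-OHDA libraries. All 4 injected muscles were above all 3 uninjected ones, and the difference was 4.20 ± 0.50 (SE) on the log2 scale, 18.3-fold, with an adjusted p of 0.00196. Its relative Sfrp1 read 0.395, 0.106 and 0.117 FPKM in sham and 1.4, 2.70, 2.45 and 2.05 FPKM in 6-OHDA muscle (3.53 ± 0.44, adjusted p = 0.00196). Haptoglobin, Hp, which binds free haemoglobin, was at 0.582, 0.310 and 0.322 FPKM in sham and ranged widely in 6-OHDA muscle, at 1.70, 6.38, 21.9 and 2.76 FPKM (3.68 ± 0.65, adjusted p = 0.00472). Library 7, the highest for Hp, was also the highest for the adipocyte markers Adipoq and Cfd given below, whose part in the rise of Hp was not tested. These 3 genes entered the test only through 6-OHDA libraries, and each passed without any 1 library. Also among the 10 largest rises were Atp6v0d2, Clec7a, Gpnmb and Lyz2, all genes of phagocytes, described next. Dlk1, Krt8 and Myh7 completed the 10, and their calls each ended without certain single libraries.

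Macrophage genes gave the highest list median, which includes members that entered only through 6-OHDA libraries. Of 16 markers of macrophages and monocytes 14 were tested and 11 rose, with a median of 2.21; 5 entered only through 6-OHDA libraries, and of the other 9, 7 rose. Lyz2, the lysozyme of macrophages, was at 19.8, 25.0 and 12.0 FPKM in sham and at 146, 251, 83.3 and 92.8 FPKM in 6-OHDA muscle, 7.16-fold higher (2.84 ± 0.41, adjusted p = 0.00356). Cd68, a glycoprotein of phagocyte lysosomes, was at 2.35, 1.95 and 1.75 FPKM in sham and at 10.0, 18.2, 7.83 and 8.64 FPKM after injection (2.39 ± 0.30, adjusted p = 0.00196). The groups were well apart for both genes, and 6-OHDA library 6 was the highest. Lgals3 (galectin 3; 2.19 ± 0.38) and Tyrobp, the adaptor that carries signals of Trem2 and similar receptors (2.23 ± 0.38), rose by like amounts. Trem2 itself, a lipid receptor named here after its values were seen, was at 0.215 to 0.271 FPKM in sham and at 1.10 to 3.26 FPKM in 6-OHDA muscle (2.86 ± 0.52, adjusted p = 0.0054). It too entered the test only through 6-OHDA libraries. The summed level of the 16 markers was 46.1, 56.1 and 28.8 FPKM in sham and 223, 378, 144 and 148 FPKM in 6-OHDA libraries.

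Phagocyte lysosome genes followed in part. Of 20, all tested, 11 rose and none fell, with a median of 0.46. Ctss, the cathepsin that trims the class II invariant chain, was at 2.54, 4.67 and 2.49 FPKM in sham and at 19, 39.7, 16.8 and 15.6 FPKM in 6-OHDA muscle (2.77 ± 0.40, adjusted p = 0.00349). Gpnmb, a glycoprotein of lipid-laden macrophages, rose 7.04-fold, from 0.828 to 1.96 FPKM in sham to 6.03 to 16.1 FPKM. Atp6v0d2, a proton pump subunit of macrophages and osteoclasts that entered only through 6-OHDA libraries, went from 0.101 to 0.477 FPKM in sham to 1.35 to 3.96 FPKM (3.39 ± 0.52, adjusted p = 0.00407). Lipa, the lysosomal acid lipase, rose 2.58-fold. The general lysosome genes that muscle itself expresses at high levels did not pass: Ctsd, cathepsin D, lay between 233 and 272 FPKM in sham and between 237 and 244 FPKM in 6-OHDA libraries (-0.06 ± 0.12, adjusted p = 0.762), and Psap, the saposin precursor, differed by 0.24 ± 0.15 (adjusted p = 0.244).

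**Figure D2:**
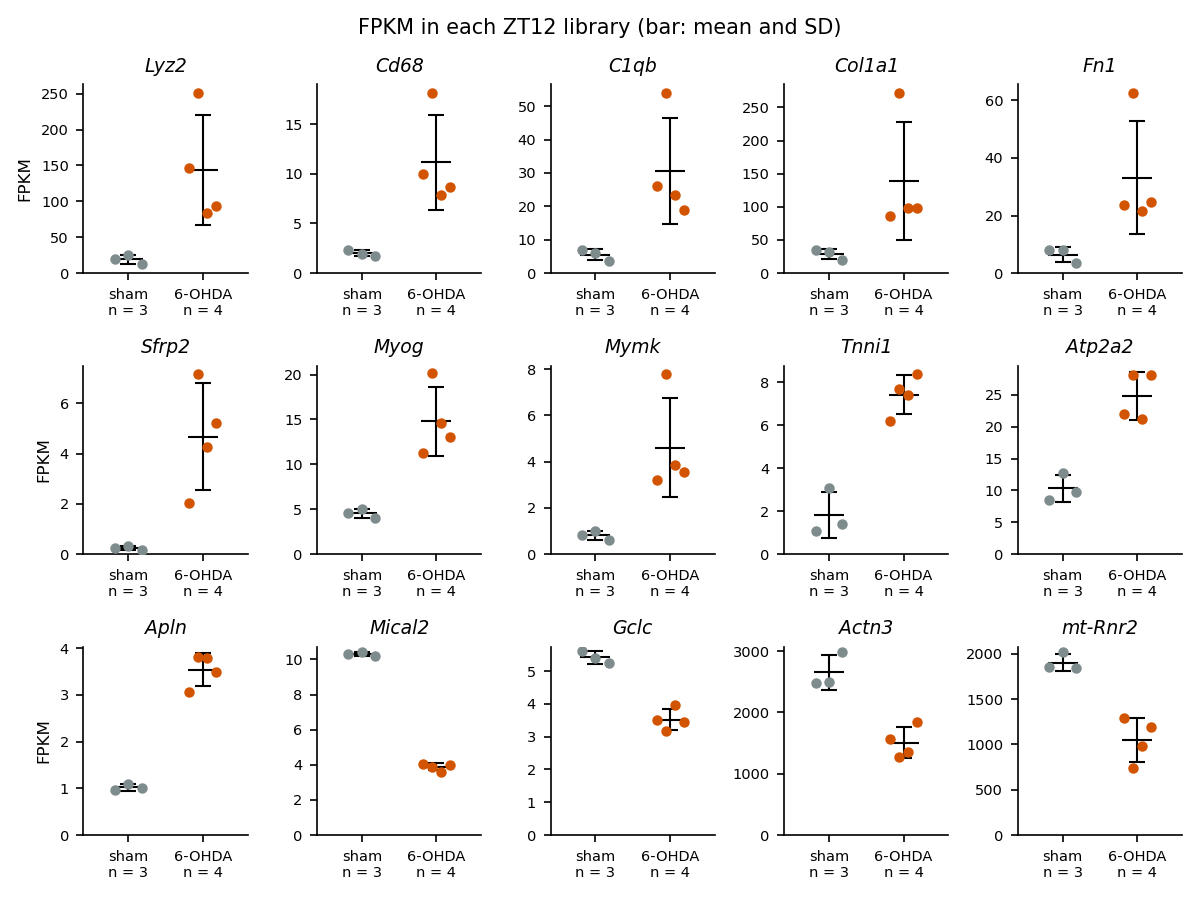
FPKM (vertical axes, each from 0) of 15 genes in the 3 sham (grey) and 4 6-OHDA (orange) libraries at ZT12; points are libraries in the order of their numbers and black bars are mean and SD. The groups do not overlap for any of the 15, and 6-OHDA library 6 is the highest point for Lyz2, Cd68, C1qb, Col1a1, Fn1, Sfrp2, Myog and Mymk.

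Complement genes rose with the phagocyte genes. Of 17 listed 15 were tested and 11 rose, with a median of 1.83; 3 entered only through 6-OHDA libraries, and of the other 12, 8 rose. C1qb, a chain of C1q, the protein that starts the classical pathway, was at 6.8, 6.04 and 3.58 FPKM in sham and at 26, 54.0, 23.3 and 18.9 FPKM in 6-OHDA muscle (2.41 ± 0.41, adjusted p = 0.0043). Its partner chain C1qc rose 4.74-fold (adjusted p = 0.0043). C4b and C3, which the cascade cleaves downstream, rose 5.35-fold and 4.04-fold (adjusted p = 0.00349 and 0.00482). For C3 the 6-OHDA libraries were close together, at 3.89, 3.24, 3.42 and 3.21 FPKM, against 1.13, 1.19 and 0.443 FPKM in sham. Serping1, which inhibits the first complement proteases, rose 2.30-fold (adjusted p = 0.0079).

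Of 35 chemokines, cytokines and their receptors 15 were tested, 5 of them only through 6-OHDA libraries, and 9 rose, with a median of 0.97. All 5 of those are among the 9, Cx3cl1 and Ccl9 included, and of the other 10, 4 rose. Ccl6, a chemokine of macrophages, was at 1.4, 1.37 and 0.591 FPKM in sham and at 6.42, 10.6, 3.76 and 3.36 FPKM in 6-OHDA muscle (2.37 ± 0.42, adjusted p = 0.00496). Csf1, the growth factor of macrophages, went from 1.51 to 1.78 FPKM in sham to 2.61 to 4.11 FPKM (0.97 ± 0.20, adjusted p = 0.00715). Cx3cl1, the membrane-bound chemokine that holds monocytes, rose 3.69-fold, and Ccl9 rose 2.63-fold (adjusted p = 0.00589 and 0.0105). The most abundant member, Cxcl14, overlapped between groups and did not pass (0.37 ± 0.23, adjusted p = 0.251). The count of 9 fell to 4 without sham library 5 and to 5 without sham library 6, sham library 7 or 6-OHDA library 6; the 4 genes named as rising passed each time.

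Genes of antigen presentation rose by small amounts with little spread. Of 18 listed 15 were tested and 13 rose, with a median of 0.85; without sham library 7 the count was 8. H2-K1, a class I heavy chain, was at 36.4, 35.1 and 39.5 FPKM in sham and at 51.9, 57.4, 55.6 and 61.8 FPKM in 6-OHDA muscle, 1.53-fold higher (0.61 ± 0.11, adjusted p = 0.00553). H2-D1 (1.80-fold), Tapbp, which loads peptides onto class I (1.64-fold), and Psmb8, a subunit of the immunoproteasome (1.69-fold), rose likewise with adjusted p of 0.0049, 0.00715 and 0.00828. H2-K1 and H2-D1 are close relatives, and reads that fit both may have been shared between them. Of 24 interferon-stimulated genes 21 were tested, and the groups did not overlap for 17 of them, all higher (19.9% of all tested genes did not overlap in this direction). Only 6 rose at the threshold (28.6%, against 12.4% of all tested genes), with a list median of 0.64. Bst2 (tetherin, which holds viruses at the membrane) went from 10.6 to 12.1 FPKM in sham to 19.6 to 25.7 FPKM (0.98 ± 0.15, adjusted p = 0.0043). The count of 6 fell to 2 without sham library 5, to 1 without sham library 6 or 7, to 2 without 6-OHDA library 6 and to 3 without 6-OHDA library 7, and Bst2 passed each time.

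Collagen genes had the highest median of the matrix lists. All 20 fibrillar and network collagens listed were tested and 17 rose, with a median of 1.69; 2 entered only through 6-OHDA libraries, and of the other 18, 16 rose. Col1a1, the main chain of type I collagen, was at 34.8, 31.5 and 19.4 FPKM in sham and at 86.5, 272, 98.3 and 97.6 FPKM in 6-OHDA muscle, 4.42-fold higher (2.15 ± 0.43, adjusted p = 0.00714). Col3a1, of the loose early collagen of repair, was at 50.0, 53.8 and 24.1 FPKM in sham and at 118, 381, 164 and 139 FPKM after injection (2.16 ± 0.42, adjusted p = 0.0064). Library 6 of the 6-OHDA group was the highest for both genes and sham library 7 the lowest, with no overlap. Col14a1 and Col5a2, which organise fibrils, rose 6.47-fold and 3.89-fold (adjusted p = 0.00549 and 0.0067). The summed level of the 20 collagens was 217, 213 and 171 FPKM in sham and 493, 1323, 588 and 547 FPKM in 6-OHDA libraries.

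Glycoproteins and crosslinking enzymes of the matrix moved the same way, 18 of 23 tested rising with a median of 1.37. Fn1, fibronectin, was at 8.06, 7.85 and 3.4 FPKM in sham and at 23.6, 62.6, 21.6 and 24.8 FPKM in 6-OHDA muscle (2.31 ± 0.43, adjusted p = 0.00576). Fbn1, of elastic microfibrils, rose 4.42-fold, Bgn, the small proteoglycan biglycan, 3.46-fold, and Sparc, a collagen chaperone, 2.63-fold. Sparc was at 99.9, 103 and 95.7 FPKM in sham and at 220, 366, 244 and 237 FPKM in 6-OHDA muscle (1.39 ± 0.24, adjusted p = 0.00472). The count of 18 fell to 9 without sham library 7, and Fn1, Fbn1, Bgn and Sparc passed without each library. Dcn, decorin, was the most abundant apart from these and its groups overlapped, at 55.6 to 118 FPKM in sham and 118 to 210 FPKM in 6-OHDA muscle; its call (0.79 ± 0.26, adjusted p = 0.0432) ended without sham library 5 (0.0747) or 7 (0.188), or 6-OHDA library 5 (0.0575), 6 (0.128) or 7 (0.0644).

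Among proteases that cut the matrix and their inhibitors, 13 of 19 tested rose, with a median of 1.04; 3 entered only through 6-OHDA libraries. Mmp14, the membrane protease that activates Mmp2, was at 4.25, 4.32 and 3.16 FPKM in sham and at 9.31, 23.4, 11.6 and 10.5 FPKM in 6-OHDA muscle (1.72 ± 0.32, adjusted p = 0.00576). Mmp2, gelatinase A, rose 3.02-fold, and Timp2, an inhibitor that also takes part in its activation, 1.99-fold (adjusted p = 0.00776 and 0.012). Mmp19 and Mmp23 rose 4.72-fold and 3.97-fold from under 1 FPKM in each sham library. The count of 13 fell to 7 without sham library 6, sham library 7 or 6-OHDA library 6, and the genes named passed each time. Of 20 tested genes of TGF-beta and activin signalling 10 rose, with a median of 0.73, and 6 did without sham library 6. Fst (follistatin), which binds activin and myostatin, went from 0.908 to 1.69 FPKM in sham to 2.48 to 4.87 FPKM (1.48 ± 0.24, adjusted p = 0.0043). Tgfbr3, the co-receptor betaglycan, rose 1.78-fold, Bmp1, the protease that trims procollagen, 2.17-fold, and Fstl1, a secreted relative of follistatin, 3.55-fold (adjusted p = 0.0043, 0.00742 and 0.00634).

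Markers of fibro-adipogenic progenitors, the resident connective tissue cells of muscle, rose for 9 of 11 tested, with a median of 1.09, and for 4 without sham library 7. Cd34 was at 11.2, 11.1 and 10.2 FPKM in sham and at 20.2, 23, 20.1 and 18.4 FPKM in 6-OHDA muscle (0.91 ± 0.14, adjusted p = 0.00375). Pi16, of the adventitial subset, rose 3.15-fold, Clec3b 2.48-fold and Thy1 2.4-fold (adjusted p = 0.00651, 0.0106 and 0.00634). The summed level of the 12 markers was 333, 360 and 212 FPKM in sham and 524, 759, 443 and 452 FPKM in 6-OHDA libraries. The 12 include Dcn, Lum and Mfap5, which are also in the list of matrix glycoproteins. How far cells of this type moved the matrix genes was not tested.

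Markers of other cell types were also called. Of 12 endothelial markers 3 rose (25.0%, against 12.4% of all tested genes), and 1 without sham library 6. Pecam1 was at 16.3, 15.0 and 17.1 FPKM in sham and at 26.7, 29.0, 27.3 and 27.3 FPKM in 6-OHDA muscle (0.77 ± 0.16, adjusted p = 0.0079 by limma). Of 12 mural markers only Mcam rose (8.33%, against 12.4% of all tested genes), by 1.85-fold (adjusted p = 0.00634). Rgs5, the most abundant pericyte marker, differed by 0.15 ± 0.14 (adjusted p = 0.472). Pmp22, a myelin protein that fibroblasts also express, rose 1.87-fold (adjusted p = 0.0054), and the myelin gene Mbp, which entered only through 6-OHDA libraries, rose 2.11-fold (adjusted p = 0.0443) but did not pass without any 1 library. The summed level of 10 Schwann cell markers was 16.1 to 20.9 FPKM in sham and 31.1 to 42.4 FPKM in 6-OHDA libraries. Pdpn, the lymphatic and fibroblast glycoprotein podoplanin, rose 2.15-fold while the other 2 tested lymphatic markers did not pass. Of 4 tested mast cell markers, all entering only through 6-OHDA libraries, the proteases Tpsb2 and Cma1 rose, 2.80-fold and 2.61-fold (adjusted p = 0.0373 and 0.0123); Tpsb2 passed only without 6-OHDA library 7 or 8 and in the full set, and Cma1 did not without sham library 7 (0.0537). Of 4 tested adipocyte markers Adipoq, adiponectin, and Cfd, adipsin, rose, 6.11-fold and 3.56-fold (adjusted p = 0.0192 and 0.0326). Adipoq was at 7.5 FPKM in 6-OHDA library 7 and at 0.754 to 1.43 FPKM in the other 3, and Cfd at 36.2 FPKM against 9.83 to 10.9 FPKM. The call of Adipoq ended without sham library 6 (0.0639) or 7 (0.0847), and that of Cfd without sham library 6 (0.0873) or 7 (0.143) or 6-OHDA library 6 (0.0562) or 7 (0.0745). Comp, a tendon matrix protein, was at 2.19, 2.08 and 0.826 FPKM in sham and at 7.78, 13.2, 6.27 and 9.07 FPKM in 6-OHDA muscle (2.48 ± 0.45, adjusted p = 0.00547). The part of any of these cells in the changes of whole muscle was not tested.

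No neutrophil and no T or NK cell marker reached 1 FPKM in 2 libraries; the 2 neutrophil markers in the table summed to at most 0.362 FPKM in sham and 0.81 FPKM in 6-OHDA muscle, and the 5 of T and NK cells to at most 1.29 and 2.63 FPKM. The 4 B and plasma cell markers summed to 16.0 to 24.4 FPKM in sham and 10.7 to 19 FPKM in 6-OHDA libraries, and neither of the 2 tested passed. Both sympathetic neuron markers in the table lay below the filter and were not tested. Th, which makes the precursor of noradrenaline, was at 0.0587 to 0.209 FPKM in sham and at 0.308 to 0.594 FPKM in 6-OHDA muscle, and Slc18a2, the vesicle transporter, at 0.713 to 0.888 FPKM in sham and at 0.496 to 0.664 FPKM in 6-OHDA muscle. The groups did not overlap for either gene, with Th the higher and Slc18a2 the lower in 6-OHDA muscle. Among all tested genes 19.9% did not overlap in the higher and 22.1% in the lower direction. The cell bodies of sympathetic neurons lie in ganglia outside the muscle, so these transcripts do not show whether nerve endings were lost.

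**Figure D3:**
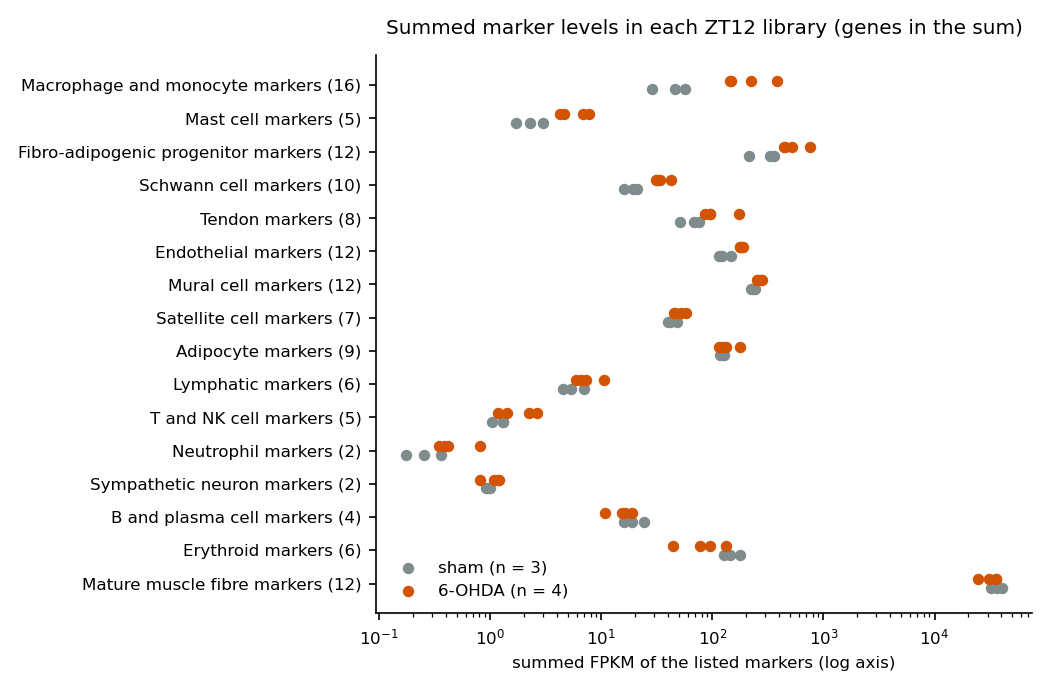
Summed FPKM (log axis) of the markers of 16 cell types in each ZT12 library, with the number of genes summed in parentheses; grey points are sham and orange points 6-OHDA libraries. The groups are farthest apart for macrophage markers, 28.8 to 56.1 against 144 to 378 FPKM, and overlap, among others, for mature muscle fibre, adipocyte, B cell and sympathetic neuron markers.

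Of 16 tested myogenic and fusion genes 5 rose and 2 fell (43.8% called, against 20.1% of all tested genes), with a median of 0.23. Myog, myogenin, which starts terminal differentiation, was at 4.56, 4.98 and 4.05 FPKM in sham and at 11.3, 20.2, 14.6 and 13.0 FPKM in 6-OHDA muscle, 3.19-fold higher (1.67 ± 0.32, adjusted p = 0.00589). Mymk, the membrane protein myomaker that fuses myoblasts, was at 0.843, 0.980 and 0.598 FPKM in sham and at 3.22, 7.80, 3.84 and 3.57 FPKM after injection (2.43 ± 0.45, adjusted p = 0.00576), and it entered only through 6-OHDA libraries. Both passed without each library. Its partner Mymx rose 3.39-fold (adjusted p = 0.0336) but not without sham library 5 (0.0791) or 7 (0.126) or 6-OHDA library 6 (0.104) or 8 (0.0543). Myod1, which acts earlier in the committed myoblast and was named after its values were seen, stood at 11.5 to 15.5 FPKM in sham and 10.5 to 15.9 FPKM in 6-OHDA muscle (0.01 ± 0.24, adjusted p = 0.99), and Pax7, the satellite cell factor, was below the filter in both. The count of 5 rises was 3 without sham library 5 or 6-OHDA library 6 and 2 without sham library 7. Among the falls was Myf6, the most abundant of the list, which acts late in differentiation and was at 83.3, 100 and 98 FPKM in sham and at 63.3, 72.5, 82.2 and 68.3 FPKM in 6-OHDA muscle (-0.39 ± 0.13, adjusted p = 0.0482). Its call ended without any 1 of the sham libraries or 6-OHDA library 5, 6 or 8, and under own totals.

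Embryonic and neonatal contractile genes were higher with wide spread. Of 11 tested 5 rose, with a median of 0.84. Myh3, the embryonic myosin heavy chain, was at 1.98, 2.23 and 1.30 FPKM in sham and at 4.36, 16.7, 14.1 and 8.21 FPKM in 6-OHDA muscle (2.41 ± 0.64, adjusted p = 0.0195). Nes, the intermediate filament nestin of young fibres, went from 7.62 to 9.69 FPKM in sham to 12.6 to 19.8 FPKM (0.84 ± 0.21, adjusted p = 0.0147). The groups did not overlap for either gene, but these calls rest on few libraries: that of Myh3 ended without sham library 6 (0.0504) or 7 (0.0707) or 6-OHDA library 6 (0.0637), and that of Nes without sham library 6 (0.0637). The count of 5 was 0 without sham library 6, 1 without sham library 7 or 6-OHDA library 6, and 2 without sham library 5. Actc1, the cardiac actin of young fibres and the most abundant of them, was at 264, 272 and 331 FPKM in sham and at 533, 591, 634 and 425 FPKM in 6-OHDA muscle and did not pass (0.91 ± 0.37, adjusted p = 0.0885).

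Imprinted growth genes, a network active in fetal and regenerating tissue, rose for 7 of 12 tested, with a median of 1.08, 3 of the 12 entering only through 6-OHDA libraries. Mest, a hydrolase expressed from the paternal copy, was at 2.07, 1.87 and 1.70 FPKM in sham and at 4.01, 16.6, 9.08 and 7.40 FPKM in 6-OHDA muscle (2.12 ± 0.46, adjusted p = 0.00929). Grb10, an inhibitor of insulin receptor signalling, and Ndn, necdin, rose 1.80-fold and 1.90-fold (adjusted p = 0.012 and 0.0125). These 3 passed without each library, while the count of 7 was 3 without any 1 sham library or without 6-OHDA library 6 and 4 without 6-OHDA library 7. H19, by far the most abundant member, was at 1107, 1103 and 1214 FPKM in sham and at 1153, 1398, 1863 and 1547 FPKM in 6-OHDA muscle, overlapped, and did not pass (0.36 ± 0.20, adjusted p = 0.204).

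E-boxes, the sites of myogenic factors, were searched as CAGCTG, which reads the same on both strands, in the 250 bases before each RefSeq start of a gene. A gene with several windows was counted if any of them held the motif. RefSeq windows (GRCm38.p6) matched 10 of the 14 genes that rose in the lists of myogenic, embryonic and denervation genes, and 3 of these 10 held the motif, as did 14.8% of the 8539 tested genes with a window. A match is a string of letters, not a shown site. The windows of Musk, the receptor that organises the neuromuscular junction (chr4:58285712-58285961, plus strand), and Tnnt2, the embryonic troponin T (chr1:135836084-135836333, plus strand), are shown because they hold the motif in these gene groups; capitals mark CAGCTG.
Musk: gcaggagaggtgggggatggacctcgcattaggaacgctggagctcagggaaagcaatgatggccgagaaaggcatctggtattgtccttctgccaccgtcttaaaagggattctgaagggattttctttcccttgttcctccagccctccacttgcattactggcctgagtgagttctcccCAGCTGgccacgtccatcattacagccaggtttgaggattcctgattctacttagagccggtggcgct
Tnnt2: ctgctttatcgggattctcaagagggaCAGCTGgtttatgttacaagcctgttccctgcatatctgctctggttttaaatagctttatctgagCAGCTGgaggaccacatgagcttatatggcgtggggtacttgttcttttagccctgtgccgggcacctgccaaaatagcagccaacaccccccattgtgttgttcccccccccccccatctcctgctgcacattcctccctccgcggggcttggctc
The Tnnt2 window shown holds it at both marked places and the Musk window once. Another Tnnt2 window (chr1:135836739-135836988, plus strand) held no match. Tnnt2, named after its values were seen, went from 0.593 to 0.716 FPKM in sham to 0.827 to 2.05 FPKM in 6-OHDA muscle (1.16 ± 0.34, adjusted p = 0.0277), a call that ended without sham library 5 (0.0731), sham library 6 (0.0668), sham library 7 (0.0814), 6-OHDA library 6 (0.0892) or 6-OHDA library 7 (0.0656). No match was found in the Myog window, which says only that these letters are not there.

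Of 13 tested denervation genes 4 rose (30.8%, against 12.4% of all tested genes), with a median of 0.60, and 1 without sham library 6, sham library 7 or 6-OHDA library 6. Musk, whose window is printed above, was the gene that passed each time: it was at 0.860, 1.04 and 0.905 FPKM in sham and at 1.21, 2.4, 2.17 and 2.1 FPKM in 6-OHDA muscle (1.03 ± 0.22, adjusted p = 0.00959). Chrnd, the delta subunit of the acetylcholine receptor, rose 2.05-fold (adjusted p = 0.0211) but not without sham library 6 (0.0794) or 7 (0.0672) or 6-OHDA library 6 (0.0688). Of 16 tested genes of atrophy and FoxO signalling none rose and only Foxo4 fell (6.25%, against 7.67% of all tested genes). Foxo4 differed by -0.56 ± 0.18 (adjusted p = 0.0412, and 0.10 under own totals). Its call ended without sham library 5 (0.0787), 6 (0.099) or 7 (0.118) or 6-OHDA library 6 (0.111) or 7 (0.0902). Trim63, the ubiquitin ligase MuRF1, also named after its values were seen, was at 57.0 to 62.3 FPKM in sham and 43.8 to 49.0 FPKM in 6-OHDA muscle and did not pass (-0.37 ± 0.13, adjusted p = 0.0516).

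Most slow-fibre genes were higher and some fast-fibre genes lower. Of 12 slow-fibre genes 8 rose, with a median of 1.56, though from low levels for this fast muscle. The 2 members with the highest level overlapped between groups and did not pass by limma. Mybpc1, a slow myosin-binding protein, was at 787, 635 and 738 FPKM in sham and at 706, 619, 759 and 797 FPKM in 6-OHDA muscle (adjusted p = 0.999). Actn2 differed by 0.33 ± 0.26 (adjusted p = 0.379). The summed level of the list was 1172 to 1366 FPKM in sham and 1447 to 1730 FPKM in 6-OHDA libraries. Tnni1, slow troponin I, was at 1.05, 3.06 and 1.4 FPKM in sham and at 6.21, 7.68, 7.39 and 8.4 FPKM in 6-OHDA muscle, 4.45-fold higher (2.15 ± 0.47, adjusted p = 0.00916). Atp2a2, the calcium pump of slow fibres, was at 8.52, 12.7 and 9.80 FPKM in sham and at 22, 28.1, 21.3 and 28.1 FPKM after injection (1.27 ± 0.27, adjusted p = 0.00852). The groups did not overlap and both genes passed without each library. Myh7, the slow myosin heavy chain, was at 0.469, 3.31 and 1.24 FPKM in sham and at 11.0, 8.79, 6.68 and 15.6 FPKM in 6-OHDA muscle, 7.99-fold higher (3.0 ± 0.90, adjusted p = 0.0318). Its call ended without sham library 5 (0.13) or 7 (0.0793) or 6-OHDA library 5 (0.0562), 6 (0.0692) or 8 (0.0678). The count of 8 was 2 without sham library 5 or 7, 4 without 6-OHDA library 6, and 5 without 6-OHDA library 7 or 8. For Tnni1, Atp2a2 and Myh7 sham library 6 was the highest of the uninjected muscles.

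Of 16 fast-fibre genes 4 fell and 1 rose (31.2% called, against 20.1% of all tested genes). The list median was -0.34, or -0.08 under own totals and 0.05 under quantile normalization. Under own totals 4 were again lower and 2 higher. Pvalb, the calcium buffer parvalbumin, was at 6910, 7126 and 7468 FPKM in sham and at 3806, 3011, 3824 and 4212 FPKM in 6-OHDA muscle (-0.96 ± 0.25, adjusted p = 0.0172). Actn3, the actinin of fast fibres, was at 2484, 2499 and 2988 FPKM in sham and at 1569, 1269, 1355 and 1837 FPKM after injection (-0.83 ± 0.21, adjusted p = 0.0169). No injected muscle reached the lowest sham value of either gene, and both stayed called under own totals. Their calls ended without sham library 7 (0.0578 and 0.0662) or 6-OHDA library 6 (0.0511 for each), and that of Pvalb without sham library 6 (0.0564); the count of 4 was 2 without sham library 5 or 6 and 0 without sham library 7 or 6-OHDA library 6. Myh4, the fastest myosin, was at 5345, 5817 and 7293 FPKM in sham and at 4088, 3277, 3457 and 4489 FPKM in 6-OHDA muscle, without overlap, and did not pass (-0.68 ± 0.25, adjusted p = 0.0696). The rise was in Myh1, the next myosin in speed, at 1441 to 1700 FPKM in sham and 2101 to 2603 FPKM after injection, and it ended without each library in turn; Myh1 and Myh4 were named after their values were seen.

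Transcripts of the mitochondrial genome were lower for 12 of 15 without overlap (22.1% of all tested genes did not overlap in this direction), and 3 fell at the threshold, with a median of -0.84, or -0.58 under own totals. The 16S ribosomal RNA, mt-Rnr2, was at 1849, 2015 and 1842 FPKM in sham and at 1289, 734, 983 and 1192 FPKM in 6-OHDA muscle (-0.89 ± 0.27, adjusted p = 0.0348), a call that ended without sham library 5 (0.0803), 6 (0.109) or 7 (0.0787) or 6-OHDA library 6 (0.106) or 7 (0.0652). mt-Co1, an oxidase subunit and the most abundant, was at 53553, 62388 and 46723 FPKM in sham and at 43716, 23812, 39314 and 38918 FPKM after injection and did not pass (-0.60 ± 0.30, adjusted p = 0.159). The count of 3 was 0 without sham library 5, sham library 6 or 6-OHDA library 6, and 1 without sham library 7 or 6-OHDA library 7. The nuclear genes of the respiratory chain gave no call: by limma none of 28 passed, with a median of -0.21 that was 0.05 under own totals. Of 22 genes of glycolysis and glycogen 18 were lower without overlap. Only Phkg1, a phosphorylase kinase subunit, fell at the threshold (4.55%, against 7.67% of all tested genes). It passed neither under own totals nor without any 1 library other than 6-OHDA library 5, and the median was -0.39, or -0.13 under own totals. Aldoa, muscle aldolase, was at 6640 to 8097 FPKM in sham and 3626 to 5420 FPKM in 6-OHDA muscle (-0.59 ± 0.23, adjusted p = 0.0845). Of 18 tested genes of fatty acid use only Ucp3, an uncoupling protein of muscle, fell (5.56%, against 7.67% of all tested genes). Its call (adjusted p = 0.0214) ended under own totals (0.104) or without sham library 5 (0.0818) or 6 (0.0835).

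The fall with the smallest p of all tested genes was in Mical2 (chromosome 7, 112225856 to 112413106, GRCm38), an enzyme that oxidises actin filaments. It was at 10.3, 10.4 and 10.2 FPKM in sham and at 4.07, 3.88, 3.60 and 3.99 FPKM in 6-OHDA muscle, 2.66-fold lower (-1.41 ± 0.12, adjusted p = 7.13e-05). The 2 groups were each nearly uniform. Other falls that passed without each library and under own totals were C1qtnf4, a secreted relative of C1q (2.65-fold), Ucn, the peptide urocortin (2.58-fold), and Hist1h3i, a replication-type histone (2.38-fold), with adjusted p of 0.00407, 0.0043 and 0.00475. Ppp1r1a, a cAMP-controlled inhibitor of protein phosphatase 1, had the largest fall among the named genes that passed, at 23, 31.1 and 23.4 FPKM in sham and 9.77, 2.93, 13.1 and 9.05 FPKM in 6-OHDA muscle (-1.74 ± 0.46, adjusted p = 0.0199). Its call ended without sham library 6 (0.0788) or 7 (0.0521).

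Stress genes showed no common direction. Of 19 tested genes of the Nrf2 response and metallothioneins 3 rose and 3 fell (31.6% called, against 20.1% of all tested genes). Without sham library 5 only 1 rose, and without sham library 6 or 6-OHDA library 6 only 1 fell. G6pdx, which makes NADPH, rose 2.15-fold and Gclc, the catalytic subunit that makes glutathione, fell 1.54-fold, from 5.25 to 5.63 FPKM in sham to 3.17 to 3.96 FPKM (adjusted p = 0.0105 and 0.0043), both without each library too. Nqo1, a quinone reductase often read as an Nrf2 target, was at 13.7, 16.8 and 12.8 FPKM in sham and at 6.78, 4.65, 6.19 and 8.08 FPKM in 6-OHDA muscle (-1.18 ± 0.31, adjusted p = 0.0189; 0.0781 without sham library 6 and 0.0618 without 6-OHDA library 6). Hmox1, of the same list as Nqo1, rose 1.8-fold, from 2.78 to 3.26 FPKM in sham to 4.77 to 7.87 FPKM (adjusted p = 0.0147 by limma). Its call ended without sham library 5 (0.0548). Of 18 unfolded protein and ATF4 genes 4 fell (22.2%, against 7.67% of all tested genes) and none rose, and under own totals 1 fell and 2 rose. Dnajb9, a chaperone helper of the endoplasmic reticulum, fell 1.6-fold (adjusted p = 0.00542) and did so under own totals and without each library; the count of 4 was 1 without sham library 6 or 7 and 2 without sham library 5 or 6-OHDA library 6 or 7.

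Of 18 clock genes 2 fell by small amounts (11.1%, against 7.67% of all tested genes), and neither was called under own totals. Arntl, the activator also called Bmal1, was at 1.94, 1.94 and 2.22 FPKM in sham and at 1.73, 1.23, 1.67 and 1.27 FPKM in 6-OHDA muscle (-0.47 ± 0.14, adjusted p = 0.0264, and 0.284 under own totals). Its call ended without sham library 5 (0.0559), 6 (0.0643) or 7 (0.0956) or 6-OHDA library 6 (0.0841) or 8 (0.0656). Cry1, a repressor, was at 5.85 to 6.11 FPKM in sham and 4.26 to 5.51 FPKM in 6-OHDA muscle (-0.29 ± 0.09, adjusted p = 0.0397, and 0.758 under own totals); it passed only without 6-OHDA library 5 or 8 and in the full set. Of 10 tested cell-cycle genes, among 24 listed, Rrm2, a subunit of ribonucleotide reductase, and Mcm6, of the replicative helicase, rose 2.33-fold and 2.08-fold to 2.24 and 2.27 FPKM at most, both entering only through 6-OHDA libraries. The kinase gene Aurka fell, a call that ended without any 1 sham library or 6-OHDA library 6 or 8. Of the 10 tested cell-cycle genes 30.0% were called, against 20.1% of all tested genes. Other listed genes lay below the filter and were not tested. Of these, Mki67 was at 0.0858 to 0.122 FPKM in sham and at 0.326 to 0.883 FPKM in 6-OHDA muscle. Top2a, Ccna2, Cdk1, Cdc20, Aurkb and Plk1 were also higher without overlap, while Ccnb1, Ccnb2, Birc5, Mcm5 and Kif11 overlapped. Among all tested genes 19.9% did not overlap in this direction.

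The list of endothelial flow and junction genes is mixed and also holds genes that are not known by their answer to flow. Of 13 tested 8 rose, with a median of 0.87, and 5 without sham library 6. Apln, the ligand apelin of sprouting endothelium, was at 0.966, 1.10 and 0.998 FPKM in sham and at 3.07, 3.81, 3.80 and 3.49 FPKM in 6-OHDA muscle, 3.43-fold higher (1.78 ± 0.20, adjusted p = 0.00196), and was the named gene that also passed with all 23 libraries. Klf2 and Klf4, the transcription factors that shear stress turns on, rose 2.34-fold and 2.43-fold (adjusted p = 0.0043 for each). Apold1, an early gene of endothelium, rose 3.28-fold (adjusted p = 0.00407). All 4 passed without each library and under own totals.

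The 6-OHDA effect at ZT12 was set against the same comparison at ZT0, lights on. It used 4 sham and 4 6-OHDA libraries with other numbers in the labels, which share no control sample with the ZT12 comparison. Both comparisons came from the same fit and share each gene's estimate of spread, so their calls are not independent. At ZT0 5103 of the same genes (43.7%) passed, 2311 higher (19.8%) and 2792 lower (23.9%). Of the 1451 genes that rose at ZT12, 1282 (88.4%) rose at ZT0, and 1433 had the same sign; these 1282 were 55.5% of the rises at ZT0. Of the 896 that fell, 736 (82.1%) fell at ZT0, 26.4% of the falls there. The median difference of the genes that rose was 0.88 at ZT12 and 0.99 at ZT0, and of those that fell -0.49 and -0.53. Numbers of calls differ with the number and spread of libraries, and the difference between times was tested gene by gene.

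**Figure D4:**
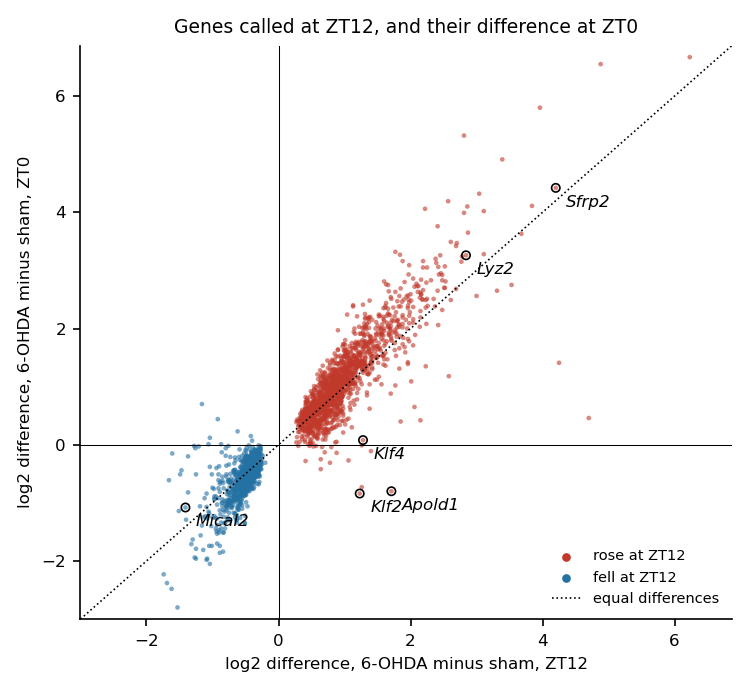
Log2 difference between 6-OHDA and sham muscle at ZT12 (horizontal axis) and at ZT0 (vertical axis) for the 2347 genes called at ZT12, red where they rose and blue where they fell; the dotted line marks equal differences and circles mark 6 named genes. Of the rises 1433 lie above 0 on the vertical axis, while Klf2 and Apold1 lie below it at -0.84 and -0.80.

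The change of the effect between the times passed for 2 of 11684 genes (0.0171%), Klf2 and Apold1, and 676 genes had an unadjusted p under 0.05. Klf2 (chromosome 8, 72319033 to 72321656, GRCm38) was at 7.39, 7.79 and 6.89 FPKM in sham and at 19.7, 19.2, 21.0 and 11.0 FPKM in 6-OHDA muscle at ZT12. At ZT0 the order was the reverse, with 15.9 to 23.8 FPKM in sham and 9.36 to 13.7 FPKM in 6-OHDA muscle (-0.84, adjusted p = 0.00286), so the effect changed by 2.07 ± 0.28 (adjusted p = 0.027). Apold1 (chromosome 6, 134981718 to 134986836) was at 0.626, 1.4 and 1.05 FPKM in sham and at 2.85, 3.72, 4.72 and 2.14 FPKM in 6-OHDA muscle at ZT12. At ZT0 it was at 3.16 to 4.48 FPKM in sham and 1.91 to 2.46 FPKM in 6-OHDA muscle (-0.80, adjusted p = 0.017), a change of 2.52 ± 0.36 (adjusted p = 0.0313). In both genes the sham libraries of ZT12 were below every one of the other 12 wild-type libraries.

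These 2 calls rested on few libraries and on the scaling. Neither passed without sham library 7 (adjusted p = 0.106 for each) or without 6-OHDA library 5 (0.0699 for each), 6 (0.0953 for Klf2 and 0.108 for Apold1) or 7 (0.06 for each), and Klf2 did not without sham library 6 (0.0522). Neither passed under own totals (0.203 for each) or with age as a covariate (0.0645 and 0.124) or with all 23 libraries (0.753 and 0.218), and Apold1 did not without a filter on low values (0.0502). The change kept its sign and lay between 1.68 and 2.78 in each of these and the other fits. For Klf4 the change was 1.20 ± 0.28 and did not pass (adjusted p = 0.423), and for Apln it was 0.25 ± 0.28 (adjusted p = 0.928), a gene higher after 6-OHDA at both times. Among genes that led the response at ZT12 the change was -0.22 ± 0.68 for Sfrp2, -0.42 ± 0.56 for Lyz2, -0.26 ± 0.43 for Myog and -0.33 ± 0.16 for Mical2. It was larger for Krt8 (-2.52 ± 1.16), Atp6v0d2 (-1.52 ± 0.71), Myh3 (-1.35 ± 0.87), Trem2 (-1.23 ± 0.70) and Gpnmb (-1.18 ± 0.64), whose rises were higher at ZT0. None of these 9 changes passed, which does not show that the effect is alike at both times.

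**Figure D5:**
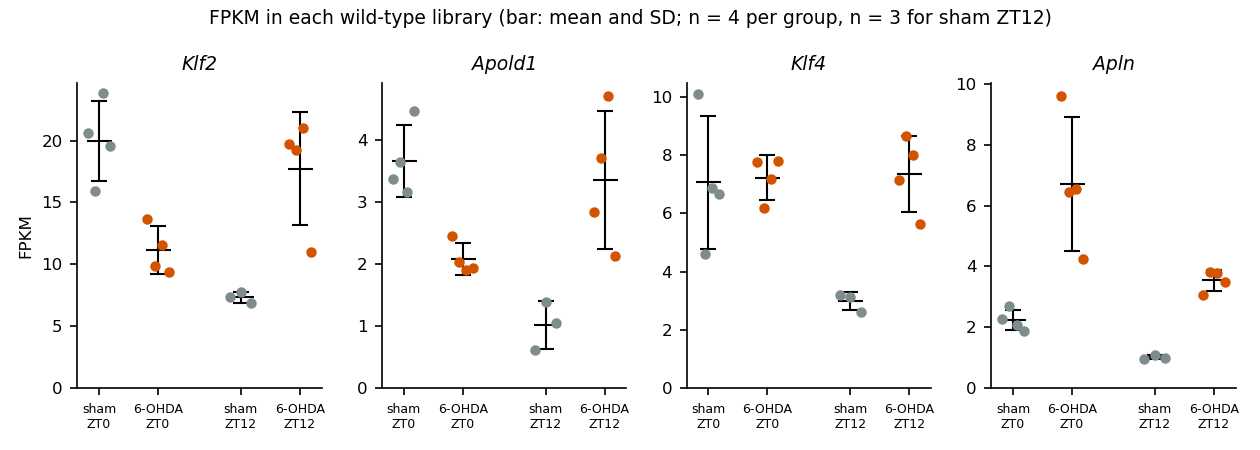
FPKM (vertical axes, each from 0) of Klf2, Apold1, Klf4 and Apln in the 15 wild-type libraries by treatment and time, with 3 sham libraries at ZT12 and 4 libraries in each other group; points are libraries and black bars mean and SD. For Klf2 and Apold1 the 6-OHDA libraries lie below sham at ZT0 and above sham at ZT12, while for Apln they lie above sham at both times.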

How the data were processed

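The deposited table gives, per the labels and the values themselves, log2 FPKM on which the authors had placed an offset of 0.01, for 14500 genes in 23 libraries. Per the submitters' processing notes HISAT2 2.1.0, featureCounts 1.6.2, edgeR 3.30.0 and GRCm38 are named, beside tools for trimming and quality control. The strand setting of the counting is not given in the sources used here. GENCODE M21 symbols matched 14435 genes. Here genes at 1 FPKM or more in 2 of the 7 libraries were fitted with limma 3.58.1 (R 4.3.3) with a mean-variance trend over 15 wild-type libraries in 4 groups, Benjamini-Hochberg adjusted and called under 0.05. Fold changes are on the log2(FPKM + 0.01) scale, which understates changes of genes near 0. Reads were recovered from FPKM steps and exon lengths: 89.9 to 94.4% of small values came within 0.1 of a whole read. An alternative, limma-voom, took these reads with the library totals implied by the deposited FPKM. On simulated data for the ZT12 comparison, over 11684 genes, 74.7% of rises of 1 (log2) and 82.7% of falls of 1 were called, and 5.78% of all calls were false. The simulation changed only a small part of the genes and gave each gene its own independent noise. It held no shared shift of a library and no effect of age, so its share of false calls cannot be carried over to the real calls. Members, gene lists and tests were chosen with earlier results of these data known. Named genes are Arntl, the 10 largest rises and falls with non-overlapping groups and a mean log2 FPKM from 1 up in either group, up to 4 called members of each list with the smallest p, its 2 members with the highest level, and the 5 smallest p of the change between times; others are said to be named after their values were seen. Alternatives were other offsets, filters, scalings, tests, samples, weights, an age covariate, a replicate block and each library left out.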

Additional observations from a re-analysis of the deposited data

Results flagged for a closer look

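The 6-OHDA effect differed between ZT12 and ZT0 for Klf2, by 2.07 on the log2 scale, and for Apold1, by 2.52, each by a test of the difference itself. The values of both genes and the libraries on which these calls rest are given above.

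In the 6-OHDA group at ZT12 1 of the 4 libraries stood far from the other 3 for several named genes. Library 6 was apart and high for Col1a1 at 272 FPKM, Fn1 at 62.6 FPKM, Fbn1 at 17.0 FPKM, Mmp2 at 105 FPKM and Thy1 at 19 FPKM, and apart and low for Ckm at 4720 FPKM. Library 7 was apart and high for Cfd at 36.2 FPKM, and its call ended without that library. Library 8 was apart and low for Klf2 at 11.0 FPKM. Dixon's test was made on 122 named genes, and chance alone gives such a gap in about 1 of 20 groups (5%). The genes named here are all that stood apart among the 122, a share near that of chance. Genes that vary together are not separate tests, and most of those named lie in library 6. The share therefore cannot say whether library 6 itself stood apart by chance. The sham group of 3 libraries is too small for the test. Calls of Col1a1, Fn1, Fbn1, Mmp2, Thy1 and Klf2 held without the library concerned.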

How the results depend on the processing

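Of the 2347 genes called at ZT12, the number was 939 to 2003 without 1 library, 1098 with age as a covariate, 4841 with array weights and 2 with all 23 libraries. Same-numbered libraries were not treated as pairs: ages differ for numbers 5 and 6 and are equal for 7. The correlation of their deviations was 0.000143, 0.0488 and -0.145 for numbers 5, 6 and 7. For unlike numbers it ran from -0.152 to 0.218, and groups this small cannot settle pairing by such values. With the replicate number as a block 1283 genes were called, 1142 of which were also called the same way at ZT0. The 2018 genes called the same way at both times became 863 to 1801 without 1 library, 994 with age, 3612 with array weights and 1 with all 23 libraries. The 2 genes whose effect changed between times became 0 to 3 without 1 library, 0 under own totals, 0 with age, 1 with all 23 libraries, 1 with the stricter filter on mean level, and 19 with array weights. The cause was not tested. The fall in mitochondrial share was 3.42 to 5.98 points without 1 library (an alternative chosen after seeing the data). Of 2165 alternative values of named genes 1841 kept their direction and side of the threshold, 291 lost and 21 gained the call, and 12 changed sign: Ckm at 0.00 under quantile normalization; Ctsd at 0.23 under quantile normalization, 0.20 under own totals, 0.03 with age and 0.01 without sham library 5; and Myod1 at -0.12 with age, -0.07 with the block, 0.00 by limma-voom, and -0.11 to -0.02 without single libraries. Of 683 alternative list medians 7 changed sign: under quantile normalization fast-fibre genes (0.05), nuclear respiratory genes (0.03) and mature fibre markers (0.11), and under own totals nuclear respiratory genes (0.05), Nrf2 genes (0.02), clock genes (0.13) and mature fibre markers (0.05). Depth of 26 to 36.1 M reads leaves genes under 1 FPKM untested.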

Other observations

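The 4 groups below were chosen after the values were seen, so their counts are a description. Of 84 tested genes of cytosolic ribosomal proteins 37 were lower and 2 higher in 6-OHDA muscle at ZT12, with a median of -0.36; under own totals 1 was lower and 2 higher, with a median of -0.10, and the number lower was 1 without sham library 6, 10 without sham library 5, 13 without sham library 7, and 24, 3, 30 and 11 without 6-OHDA library 5, 6, 7 and 8. Rpl3, the form that gives way to Rpl3l in mature muscle, was one of those that rose, at 17.7, 18.2 and 14.9 FPKM in sham and at 29.0, 39.5, 30.9 and 26.2 FPKM in 6-OHDA muscle (0.88 ± 0.17, adjusted p = 0.00634 by limma). Of 22 SR-family and Luc7 splicing factors 11 fell and none rose, with a median of -0.30, or 3 under own totals and 7 without sham library 6; Luc7l2 was at 26.9 to 29.3 FPKM in sham and at 16.3 to 20.5 FPKM in 6-OHDA muscle.

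Of 13 tested secreted frizzled-related, frizzled and R-spondin genes of the Wnt pathway 7 rose and none fell, with a median of 1.11, and 6 or 7 did without each library; 4 of the 13 entered only through 6-OHDA libraries. Fzd1, a Wnt receptor, rose 2.66-fold (adjusted p = 0.00472 by limma), and Rspo3, a ligand that strengthens Wnt signals, 5.70-fold from 0.0967 to 0.309 FPKM in sham to 0.817 to 1.29 FPKM (adjusted p = 0.0043 by limma). Of 12 acute immediate early genes 8 rose, with a median of 0.69 at ZT12 and 0.10 at ZT0, with 2 rising without sham library 5, 5 without sham library 6 or 6-OHDA library 6, and 4 without sham library 7. Fos, which forms AP-1, was at 1.96, 2.38 and 2.82 FPKM in sham and at 5.93, 12.9, 8.49 and 8.11 FPKM in 6-OHDA muscle (1.85 ± 0.28, adjusted p = 0.00393 by limma), and Ier2 rose 1.82-fold, while at ZT0 the differences of Fos and Ier2 were 0.40 and 0.04 and did not pass. The change between times passed for neither gene.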
